A study of Mus musculus with 6 samples.

Results

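The genes described here encode glutathione transferases and other enzymes that detoxify reactive and foreign molecules. They were taken as every mouse gene on the array whose symbol belongs to 1 of 7 families: the glutathione transferases (Gst, followed by a class letter and a number), the membrane-associated glutathione transferases (Mgst), the UDP-glucuronosyltransferases (Ugt), the sulfotransferases (Sult), the carboxylesterases (Ces), the flavin-containing monooxygenases (Fmo) and the epoxide hydrolases (Ephx). The rule uses symbols only, not measured values. This gave 72 genes on 95 probes, out of 16358 gene symbols on the array, and 52 of the 72 were measured well enough to be tested, out of 12968 genes in all. The samples were whole lungs of C57BL/6 mice in 3 groups of 2 arrays each: hCD2-T-bet tg/tg, hCD2-T-bet tg/wt and WT. The transgene overexpresses T-bet, the transcription factor encoded by Tbx21, in T cells, and the name hCD2 refers to regulatory sequences of the human CD2 gene that are active in T cells. The series concerns pulmonary alveolar proteinosis, a lung disease with surfactant building up in the alveoli, in these mice. Age, sex and pooling of animals are not given in the sources used here, nor whether the 2 arrays of a group stand for 2 animals. The p-values therefore cover the scatter among these arrays alone, and that scatter may be technical.

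Detoxification is usually described in steps. Carboxylesterases split esters and amides, flavin-containing monooxygenases add oxygen to nitrogen and sulfur atoms, and epoxide hydrolases open epoxides with water. Glutathione transferases, UDP-glucuronosyltransferases and sulfotransferases then couple glutathione, glucuronic acid or sulfate to the product, which makes it easier to export. In the mouse lung many of these enzymes are known from club cells, the secretory cells of the small airways, and several of the genes are classical targets of the transcription factor NRF2 or of the aryl hydrocarbon receptor.

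Levels are given as log2 of the processed fluorescence intensity minus the array's 75th percentile, so that a difference of 1 is a 2-fold change, and a level cannot be set against that of another probe. The 75th percentiles lay between 794.1 and 1204 intensity units, 62.0% to 66.8% of probes were well above background on each array, and replicate arrays correlated at 0.996 to 0.997 over the tested genes. The arrays of tg/tg and WT lung lay on 1 slide and those of tg/wt lung on another, so slide and genotype cannot be told apart in any comparison with tg/wt. Sftpc, which encodes surfactant protein C and marks alveolar type 2 cells of the lung, was saturated on all 6 arrays. The targeted gene, Tbx21, had levels of 3.25 and 3.26 on the tg/tg arrays, 1.30 and 1.34 on the tg/wt arrays, and -0.70 and -0.71 on the WT arrays, 15.6-fold above WT in tg/tg and 4.06-fold above WT in tg/wt.

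In tg/tg lung the detoxifying enzymes were lower than in WT lung nearly throughout. At an adjusted p under 0.05 in limma, 46 of the 52 tested members (88.5%) fell, none rose and 6 did not pass, and on the same threshold 74.7% of all 12968 genes were called, 33.8% higher and 40.8% lower. The median log2 difference of the members was -1.34, or -1.23 with genes below background in tg/tg at their bound, against -0.05 over all genes tested. Of the 46 that fell, 29 were more than 2-fold lower with genes below background taken at their bound. The tg/tg and WT arrays of all 46 did not overlap, which was also so for all 5297 genes called lower over the whole array. Fmo4, Sult1c2, Sult1e1 and Ugt8a, 4 of the 46, were below background on both tg/tg arrays and entered the test through the arrays of the other groups. For these 4 the gap between the arrays rests on unmeasured tg/tg signal. Without adjustment, at p under 0.05, the count was again 0 higher and 46 lower. The count of 0 higher holds for the main model of all 6 arrays. Gstp3, a pi class glutathione transferase, had levels of -2.42 and -2.51 on the tg/tg arrays, -3.54 and -1.71 on the tg/wt arrays, and -3.71 and -3.74 on the WT arrays. Its difference of 1.26 between tg/tg and WT (SE 0.594) had an adjusted p of 0.113 in the main model, where the tg/wt arrays stand far apart. With a variance trend fitted to the same 6 arrays the adjusted p was 0.0443, so Gstp3 was then called higher. It was 1.82e-04 when the tg/tg and WT arrays of slide 1 were fitted alone. In both of these fits the count was 1 higher. Leaving out either tg/wt array gave the slide 1 fit again, since the fits with an array left out held only the 2 groups compared. Without tg/tg array 1 in that fit, Sult1c1 stood 0.31 above WT on the log2 scale. Without tg/tg array 2, Ugt3a2 stood 0.38 above WT. Since these were bulk samples, fewer cells of a type and less RNA per cell cannot be told apart.

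**Figure D1:**
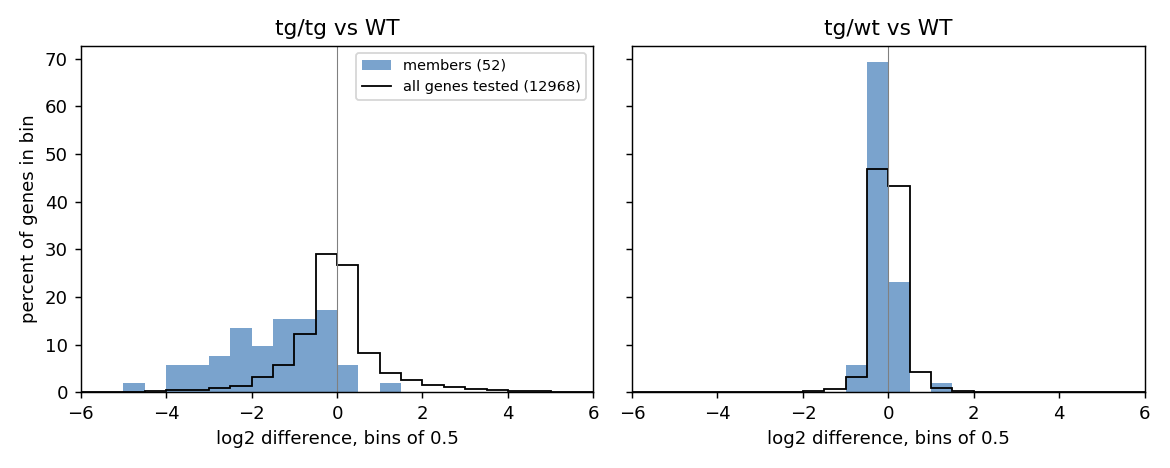
Share of genes, in percent, in each bin of 0.5 of the log2 difference, for the 52 tested members (filled) and all 12968 tested genes (line), tg/tg against WT on the left and tg/wt against WT on the right. In tg/tg the members spread from -4.72 to 1.26 with a median of -1.34, while all genes centre on -0.05; in tg/wt the members' median is -0.18.

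Among the cytosolic, mitochondrial and peroxisomal glutathione transferases, 18 of 19 tested genes fell in tg/tg and 1, Gstp3, did not pass, with a median log2 difference of -1.19. The alpha class, which acts on organic peroxides and on aldehydes from lipid oxidation, held the 3 largest falls. The 250 bases upstream of the start of Gsta1 and Gsta2 are shown, from RefSeq on GRCm38.p6 (Gsta1 at chr9:78230419-78230668 on the + strand and Gsta2 at chr9:78347146-78347395 on the - strand, each written 5′ to 3′ along its gene). A part of these sequences in the falls was not tested. The 2 windows were identical at 190 of 266 aligned positions (71.4%), and the capitals mark their longest shared run, 29 bases.
Gsta1: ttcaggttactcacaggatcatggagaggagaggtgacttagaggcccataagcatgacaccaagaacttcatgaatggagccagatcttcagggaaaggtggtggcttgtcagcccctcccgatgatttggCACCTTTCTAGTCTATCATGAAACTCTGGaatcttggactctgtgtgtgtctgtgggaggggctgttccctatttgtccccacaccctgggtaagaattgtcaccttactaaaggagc
Gsta2: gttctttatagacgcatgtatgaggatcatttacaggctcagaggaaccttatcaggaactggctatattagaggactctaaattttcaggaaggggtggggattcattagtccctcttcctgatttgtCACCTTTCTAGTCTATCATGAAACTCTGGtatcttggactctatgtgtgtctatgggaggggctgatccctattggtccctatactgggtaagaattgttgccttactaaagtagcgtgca

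Gsta2 had levels of -3.96 and -3.88 on the tg/tg arrays, -0.21 and -0.26 on the tg/wt arrays, and 0.03 and -0.06 on the WT arrays. It was 15.0-fold lower in tg/tg than in WT lung (log2 difference -3.90, SE 0.0512, adjusted p = 1.16e-06). Both tg/tg arrays lay far below the other 4, and the tg/wt arrays lay just under WT. Gsta1 had levels of -1.87 and -1.83 on the tg/tg arrays, 1.30 and 1.32 on the tg/wt arrays, and 1.58 and 1.60 on the WT arrays, and was 10.9-fold lower in tg/tg than in WT (SE of the log2 difference 0.0343, adjusted p = 6.68e-07). Gsta3, whose product in mice conjugates the epoxide of the mould toxin aflatoxin, had levels of 3.59 and 3.59 on the tg/tg arrays, 6.20 and 6.30 on the tg/wt arrays, and 6.49 on each WT array. It was 7.44-fold lower in tg/tg than in WT (SE 0.0454, adjusted p = 1.63e-06). For these 3 genes the order of the groups was the same, with tg/tg lowest, tg/wt between and WT highest, and no arrays of neighbouring groups overlapped. Gsta4, which prefers the lipid peroxidation product 4-hydroxynonenal, fell by 0.92 on the log2 scale, the smallest fall of the class. A probe that matches several near-identical copies, such as Gsta1 and Gsta2, cannot tell them apart, and the match of the probes to these copies was not tested.

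The mu class followed. Gstm3 had levels of 3.26 and 3.36 on the tg/tg arrays, 5.37 and 5.41 on the tg/wt arrays, and 5.76 and 5.74 on the WT arrays, and was 5.42-fold lower in tg/tg than in WT (SE of the log2 difference 0.0471, adjusted p = 2.81e-06). Gstm1 had levels of 5.50 and 5.54 on the tg/tg arrays, 7.42 and 7.47 on the tg/wt arrays, and 7.73 and 7.67 on the WT arrays, which was 4.54-fold lower in tg/tg than in WT, and a second probe gave a log2 difference of -2.55 in place of -2.18. Gstm6 was 4.06-fold and Gstm2 2.68-fold lower in tg/tg than in WT, while Gstm4 and Gstm5 fell by 0.50 and 0.34 on the log2 scale. In RefSeq's gene order the 6 tested mu genes lie in 1 run on chromosome 3, and all 6 fell, by amounts that differed widely between neighbours.

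Members of other classes also fell. The omega genes Gsto1 and Gsto2, which reduce dehydroascorbate and arsenic compounds, were 2.40-fold and 2.71-fold lower in tg/tg than in WT, and Gstk1, the kappa enzyme of mitochondria and peroxisomes, was 2.28-fold lower. Gstp1, the other pi class gene tested, had levels of 5.37 and 5.45 on the tg/tg arrays, 5.82 and 5.91 on the tg/wt arrays, and 6.22 on each WT array, and was 1.75-fold lower in tg/tg than in WT lung (adjusted p = 1.14e-04). The theta genes Gstt1, Gstt2 and Gstt3, neighbours on chromosome 10, fell by 0.58, 0.24 and 0.30 on the log2 scale, and Gstz1, which also isomerises maleylacetoacetate in tyrosine breakdown, fell by 0.37. The 3 membrane-bound Mgst genes all fell in tg/tg, none by as much as 2-fold. Mgst1, the abundant microsomal form, had levels of 4.99 and 5.0 on the tg/tg arrays, 5.33 and 5.35 on the tg/wt arrays, and 5.51 and 5.49 on the WT arrays, 1.43-fold lower in tg/tg than in WT (SE of the log2 difference 0.0321, adjusted p = 1.05e-04). Mgst3, which reduces lipid peroxides, had levels of 0.99 and 1.04 on the tg/tg arrays, 1.40 and 1.48 on the tg/wt arrays, and 1.56 on each WT array, 1.46-fold lower in tg/tg than in WT. Mgst2, which can make leukotriene C4, had levels of 2.27 on each tg/tg array, 2.31 on each tg/wt array, and 2.71 and 2.68 on the WT arrays. Its tg/tg and tg/wt arrays lay close together, both groups below WT.

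**Figure D2:**
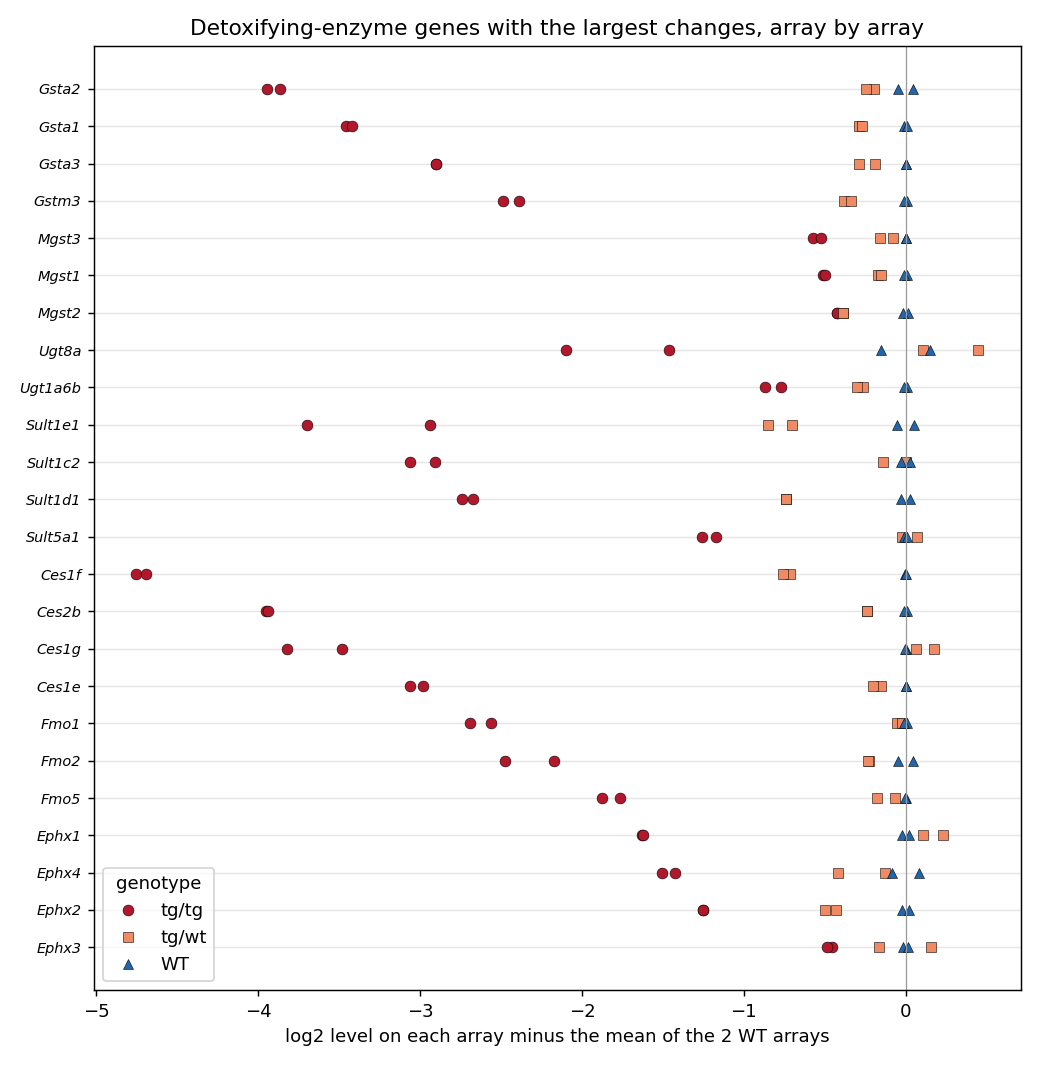
Log2 level on each array minus the mean of the 2 WT arrays, for the up to 4 members per family with the largest falls in tg/tg against WT; circles are tg/tg, squares tg/wt and triangles WT, and some points lie on top of each other. The tg/tg circles of Gsta2 sit near -3.90 and those of Ces1f near -4.72, while most tg/wt squares lie within 0.5 of WT.

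NRF2 acts through antioxidant response elements and the aryl hydrocarbon receptor through xenobiotic response elements, so the windows of 250 bases upstream of the gene start were searched on both strands for the core letters TGACNNNGC and GCGTG. Of the 72 member genes 60 had a match in RefSeq's promoter table, with 73 promoters. The core TGACNNNGC was found in 3 of the 73 (4.11%) and in 3338 of all 32851 promoters (10.2%). The core GCGTG was found in 12 of the 73 (16.4%, in 11 genes) and in 9250 of all promoters (28.2%). The 3 promoters that hold the first core are shown because they place the letters in a gene with a large fall (Gsta3) and in genes with small falls (Gstm5 and Mgst1); capitals mark the core, which in Mgst1 lies on the opposite strand, and in Gstm5 a GCGTG on the opposite strand overlaps it. They are Gsta3 at chr1:21240335-21240584 on the + strand, Gstm5 at chr3:107895604-107895853 on the + strand and Mgst1 at chr6:138140277-138140526 on the + strand, all on GRCm38.p6 from RefSeq.
Gsta3: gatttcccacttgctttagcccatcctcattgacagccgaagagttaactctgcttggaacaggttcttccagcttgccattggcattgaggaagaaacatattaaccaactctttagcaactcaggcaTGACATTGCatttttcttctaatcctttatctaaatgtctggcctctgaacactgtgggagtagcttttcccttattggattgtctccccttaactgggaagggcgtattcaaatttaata
Gstm5: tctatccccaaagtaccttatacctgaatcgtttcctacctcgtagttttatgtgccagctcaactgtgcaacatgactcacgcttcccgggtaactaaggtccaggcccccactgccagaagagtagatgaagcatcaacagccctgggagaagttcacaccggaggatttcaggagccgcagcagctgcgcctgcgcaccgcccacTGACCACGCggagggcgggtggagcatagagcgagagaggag
Mgst1: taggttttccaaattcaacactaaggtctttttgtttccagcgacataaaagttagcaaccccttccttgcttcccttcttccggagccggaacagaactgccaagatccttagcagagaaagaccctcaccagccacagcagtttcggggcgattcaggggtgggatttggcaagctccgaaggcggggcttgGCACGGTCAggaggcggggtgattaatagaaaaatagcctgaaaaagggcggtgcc

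A match of letters is a description of these windows and not a site. Counted from the start, with -1 as the base just before it, the core ended at -113 in Gsta3, at -34 in Gstm5 and at -48 in Mgst1. The 3 genes fell by 2.90, 0.34 and 0.51 on the log2 scale in tg/tg against WT. A part of these letters in the falls was not tested.

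UDP-glucuronosyltransferases were mostly too dim to measure: 3 of the 14 on the array were tested. Ugt1a6b, of the phenol-conjugating Ugt1a6 pair, had levels of 3.43 and 3.53 on the tg/tg arrays, 4.04 and 4.0 on the tg/wt arrays, and 4.31 and 4.29 on the WT arrays, 1.77-fold lower in tg/tg than in WT (SE of the log2 difference 0.0486, adjusted p = 8.60e-05). Transcripts of the Ugt1a locus share their 3′ exons, so this signal may include other Ugt1a transcripts. Ugt8a, which makes galactosylceramide, was below background on both tg/tg arrays and on 1 WT array. Its fitted log2 difference of -1.78 (adjusted p = 0.00229) therefore has no measured size, and under a floor at the background level it was 0.07 with no call. Ugt3a2 differed by 0.08 (95% interval -0.48 to 0.63), which did not pass.

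Of the 9 sulfotransferases tested, 6 fell in tg/tg and 3 did not pass. Sult1d1, which sulfates catecholamines in mice, had levels of -2.42 and -2.49 on the tg/tg arrays, -0.49 on each tg/wt array, and 0.22 and 0.28 on the WT arrays. It was 6.54-fold lower in tg/tg than in WT lung (log2 difference -2.71, SE 0.0428, adjusted p = 1.66e-06), and its groups stood in the order tg/tg, tg/wt, WT with wide gaps. Sult1e1, the estrogen sulfotransferase and its neighbour on chromosome 5, had levels of -6.74 and -7.50 on the tg/tg arrays, -4.50 and -4.65 on the tg/wt arrays, and -3.75 and -3.85 on the WT arrays. Neither tg/tg array was well above background, so Sult1e1 was at least 2.83-fold lower in tg/tg than in WT lung. This bound sets the bright group's mean against the higher of the probe's own signal and the lowest well-measured signal of each tg/tg array. The adjusted p was 2.24e-04 for the fitted difference, which uses the unmeasured signal, and 4.07e-05 under a floor at the background level. Sult1c2 was likewise below background on both tg/tg arrays, at -7.64 and -7.49, against -4.72 and -4.58 on the tg/wt arrays and -4.61 and -4.55 on the WT arrays. That is at least 1.65-fold lower in tg/tg than in WT lung. The adjusted p was 5.72e-06 for the fitted difference and 5.74e-04 under the floor. Sult5a1 had levels of -2.07 and -2.16 on the tg/tg arrays, -0.92 and -0.83 on the tg/wt arrays, and -0.91 and -0.89 on the WT arrays, 2.32-fold lower in tg/tg than in WT lung (adjusted p = 3.09e-05). For Sult1c2 and Sult5a1 the tg/wt and WT arrays lay together and the tg/tg arrays apart. Sult1a1, the main phenol sulfotransferase, was 2.02-fold lower in tg/tg than in WT, and Sult2a8 fell by 0.36 on the log2 scale. The 3 that did not pass were Sult1c1, the neighbour of Sult1c2, with a difference of 0.20 (95% interval -0.06 to 0.45), Sult2b1, which sulfates cholesterol, with -0.04 (-0.41 to 0.32), and Sult4a1 with 0.03 (-0.16 to 0.22).

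Carboxylesterases held the largest fall of all members and the lowest median of any of the 7 families, -2.47 over 9 tested genes, of which 8 fell in tg/tg. Ces1f, which hydrolyses stored triacylglycerol in mouse liver, had levels of -3.80 and -3.74 on the tg/tg arrays, 0.24 and 0.20 on the tg/wt arrays, and 0.95 and 0.96 on the WT arrays. It was 26.4-fold lower in tg/tg than in WT lung (log2 difference -4.72, SE 0.039, adjusted p = 6.38e-07). The 3 groups were well apart, with tg/tg far below the others. Ces2b had levels of -4.30 and -4.29 on the tg/tg arrays, -0.59 on each tg/wt array, and -0.34 and -0.36 on the WT arrays, 15.4-fold lower in tg/tg than in WT (SE of the log2 difference 0.0315, adjusted p = 6.38e-07). A second Ces2b probe gave -1.59 in place of -3.95, so the direction was shared and the size was not. Ces1g, an esterase known from liver, had levels of -2.88 and -3.22 on the tg/tg arrays, 0.67 and 0.78 on the tg/wt arrays, and 0.61 and 0.60 on the WT arrays, 12.6-fold lower in tg/tg than in WT (SE 0.119, adjusted p = 1.17e-05), and its second probe gave a log2 difference of -4.20. Ces1e had levels of -1.93 and -2.01 on the tg/tg arrays, 0.90 and 0.85 on the tg/wt arrays, and 1.05 on each WT array, 8.11-fold lower in tg/tg than in WT. Ces2e was 5.52-fold, Ces1c, which encodes the plasma carboxylesterase of mice, 4.98-fold, Ces2g 4.77-fold and Ces1d, a triacylglycerol and retinyl ester hydrolase, 3.95-fold lower in tg/tg than in WT. In RefSeq's order the 5 tested Ces1 genes are neighbours on chromosome 8 and all 5 fell, by 1.98 to 4.72 on the log2 scale. In the Ces2 run on the same chromosome 3 of 4 tested genes fell. The other, Ces2a, had levels of -4.22 and -4.24 on the tg/tg arrays, -4.19 and -4.38 on the tg/wt arrays, and -4.08 and -4.28 on the WT arrays, a difference of -0.05 between tg/tg and WT (95% interval -0.29 to 0.20).

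The flavin-containing monooxygenases Fmo1, Fmo2, Fmo4 and Fmo5 fell in tg/tg. Fmo1 had levels of 0.24 and 0.37 on the tg/tg arrays, 2.88 and 2.91 on the tg/wt arrays, and 2.94 and 2.92 on the WT arrays, 6.16-fold lower in tg/tg than in WT (SE of the log2 difference 0.0527, adjusted p = 3.07e-06). Fmo2, the form best known from lung, had levels of 2.14 and 1.84 on the tg/tg arrays, 4.09 and 4.08 on the tg/wt arrays, and 4.36 and 4.27 on the WT arrays, 5.02-fold lower in tg/tg than in WT (SE 0.106, adjusted p = 3.41e-05). Its second probe gave a log2 difference of -1.74 in place of -2.33. Fmo5 had levels of -2.02 and -1.91 on the tg/tg arrays, -0.32 and -0.21 on the tg/wt arrays, and -0.14 and -0.15 on the WT arrays, 3.52-fold lower in tg/tg than in WT. In Fmo1, Fmo2 and Fmo5 the tg/tg arrays stood far below the other 4, which lay close together. Fmo4 was below background on both tg/tg arrays and at least 1.13-fold lower in tg/tg than in WT lung by the group means. The adjusted p of 0.0148 belongs to its fitted log2 difference of -0.72, which uses the unmeasured tg/tg signal. The lowest well-measured signal of tg/tg array 2, -5.22, lay above the Fmo4 level of WT array 1, -5.26.

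The 4 epoxide hydrolases also fell in tg/tg. Ephx1, the microsomal enzyme that acts on foreign epoxides, had levels of 1.84 and 1.85 on the tg/tg arrays, 3.58 and 3.70 on the tg/wt arrays, and 3.45 and 3.49 on the WT arrays. It was 3.08-fold lower in tg/tg than in WT lung (log2 difference -1.62, SE 0.0511, adjusted p = 1.04e-05), and a second probe gave -1.72. The tg/wt arrays of Ephx1 lay slightly above WT. Ephx2, the soluble enzyme that hydrolyses epoxides of arachidonic acid, had levels of -0.25 on each tg/tg array, 0.50 and 0.57 on the tg/wt arrays, and 0.98 and 1.02 on the WT arrays, 2.38-fold lower in tg/tg than in WT (SE 0.0407, adjusted p = 1.17e-05). Ephx4 had levels of -4.92 and -5.0 on the tg/tg arrays, -3.62 and -3.91 on the tg/wt arrays, and -3.41 and -3.58 on the WT arrays, 2.76-fold lower in tg/tg than in WT lung (adjusted p = 2.54e-04). Ephx3 had the smallest fall of the family, with levels of -3.09 and -3.12 on the tg/tg arrays, -2.48 and -2.80 on the tg/wt arrays, and -2.65 and -2.62 on the WT arrays. Its log2 difference of -0.46 between tg/tg and WT had an adjusted p of 0.0149. The difference was -0.48 to -0.45 in fits of tg/tg and WT alone with 1 of their arrays left out. Those fits held 1 array in a group, and the call was lost in them.

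**Figure D3:**
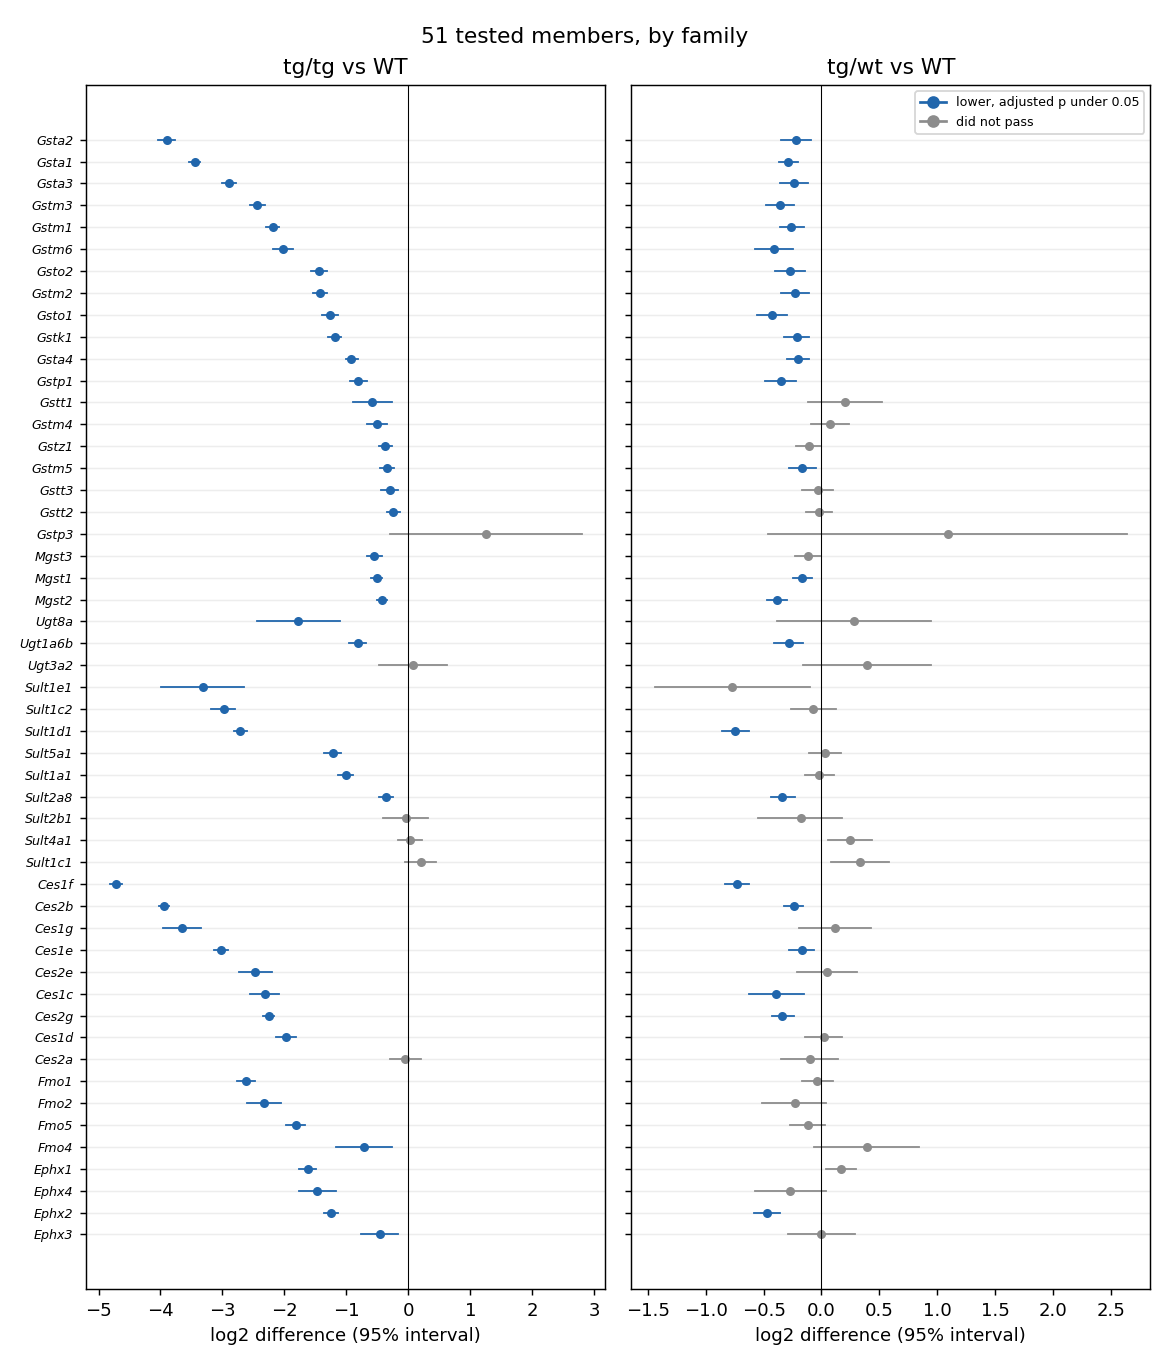
Log2 differences with 95% intervals for 51 tested members, ordered by family and by size, for tg/tg against WT on the left and tg/wt against WT on the right; blue points passed an adjusted p of 0.05 and were lower, grey points did not pass, and the axes differ in range. On the left 45 points are blue and on the right 24, with differences that run to -4.72 on the left and to -0.75 among the blue points on the right.

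In tg/wt lung some members fell against WT, each by less than 2-fold, and the others did not pass the test. In limma 25 of 52 fell (48.1%), none rose and 27 did not pass, against 27.9% of all genes called, 13.4% higher and 14.6% lower. Without adjustment, at p under 0.05, 3 were higher and 28 lower. With only the tg/wt and WT arrays fitted, Sult1c1 and Ugt3a2 were called higher than in WT. With tg/wt array 1 also left out, Gstp3 stood 2.01 above WT on the log2 scale. The members' median log2 difference was -0.18, against -0.00 over all genes, and none of the 25 that fell was as much as 2-fold lower. The falls covered 13 of 19 Gst genes, 2 of 3 Mgst, 1 of 3 Ugt, 2 of 9 Sult, 5 of 9 Ces and 1 of 4 Ephx, among others. Of those that passed, Sult1d1 fell most, at 1.68-fold lower than in WT lung (log2 difference -0.75, SE 0.0428, adjusted p = 0.00107), followed by Ces1f, 1.66-fold lower (-0.73, SE 0.039, adjusted p = 9.01e-04). Ephx2 was 1.38-fold lower (adjusted p = 0.00292) and Gsto1, with levels of 5.0 and 5.10 on the tg/wt arrays and 5.48 on each WT array, was 1.35-fold lower (adjusted p = 0.00575). Sult1e1 differed by -0.77 without passing (95% interval -1.44 to -0.10, adjusted p = 0.0858), as did Ephx1, by 0.17 (0.04 to 0.30, adjusted p = 0.0673). The fit of tg/wt and WT arrays alone had 27 members lower and 3473 genes called over the whole array, against 3622 in the main model. Leaving out 1 of these 4 arrays as well left 1 array in a group, so calls are not given for those fits. The members' median log2 difference was then -0.19 to -0.16. A difference between slides cannot be told apart from the genotype here.

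Set against tg/wt, tg/tg lung had 45 of 52 members lower (86.5%), none higher and 7 that did not pass, against 74.2% of all genes called, 34.0% higher and 40.2% lower. Without adjustment, at p under 0.05, the counts were 0 and 45. With the WT arrays and tg/wt array 2 left out, Gstp3 in tg/tg stood 1.08 above tg/wt on the log2 scale. The median log2 difference was -1.18, or -0.90 with bounds, against -0.05 over all genes, and 24 members were more than 2-fold lower with genes below background taken at their bound. Ces1f was 15.9-fold, Ces1g 13.7-fold, Ces2b 13.1-fold and Gsta2 12.8-fold lower in tg/tg than in tg/wt. Mgst2 had a log2 difference of -0.04 in this comparison (95% interval -0.13 to 0.04) and Sult2a8 one of -0.03 (-0.14 to 0.08), and against WT the 2 genes fell by 0.42 and 0.36 in tg/tg and by 0.38 and 0.34 in tg/wt. The comparisons share arrays, so their values are given side by side only.

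The lists of genes around these enzymes held both rises and falls in tg/tg. Of 15 genes of NRF2 signalling and glutathione supply, 6 were higher, 6 lower and 3 did not pass in tg/tg against WT, with a median of -0.04. That is 40% each way, near the shares over all genes tested, 33.8% higher and 40.8% lower. Slc7a11, the cystine carrier that feeds glutathione synthesis, had levels of -0.53 and -0.63 on the tg/tg arrays, against -5.93 and -5.96 on the tg/wt arrays and -5.71 and -5.73 on the WT arrays, which were below background. Against WT it was at least 31.1-fold higher in tg/tg, where the adjusted p of 6.38e-07 belongs to the fitted log2 difference. Hmox1, which breaks down haem, was 8.26-fold higher. On the other side, Nqo1, a quinone reductase and classical NRF2 target, was 3.29-fold lower, and Gpx2, an epithelial glutathione peroxidase, 2.27-fold lower. Both rises and both falls stood within 1 list. The RNA level of Nfe2l2, the gene of NRF2 itself, named here after its values were seen, differed by -0.01 (95% interval -0.09 to 0.08). NRF2 protein and its activity were not measured, and a part of NRF2 in these changes was not tested.

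Among 10 receptors of foreign compounds and their partners, 3 were higher and 5 lower in tg/tg against WT. For this list and those below, the shares over all genes tested were 33.8% higher and 40.8% lower. Ahrr, the repressor of the aryl hydrocarbon receptor, was 4.55-fold higher, with 1 of the 2 WT arrays well above background. Nr1h4, the bile acid receptor, was 3.0-fold higher, while Ppara was 3.01-fold lower and Nr1i2, the pregnane X receptor, 2.68-fold lower. Of 10 genes that supply cofactors or split conjugates, 1 was higher and 5 lower: Gusb, the lysosomal glucuronidase, was 2.14-fold higher, while Cyb5a and Por, which pass electrons to microsomal enzymes, were 2.10-fold and 2.09-fold lower. Of 21 other detoxifying enzymes, 8 were higher and 13 lower. Aadac, a microsomal deacetylase, was 15.3-fold higher in tg/tg, with 1 of the 2 WT arrays well above background, and Pon1, an esterase of lactones and organophosphates, was 7.82-fold lower, Aldh1a1 6.26-fold lower and the mitochondrial aldehyde dehydrogenase Aldh2 3.59-fold lower. Of 8 transporters that export conjugates, 4 were higher and 3 lower, with Abcc4 2.13-fold and Abcc5 1.99-fold higher and Abcb1a 2.0-fold lower. In tg/wt against WT these lists held 0 higher and 8 lower of 15, 0 and 1 of 10, 0 and 3 of 10, 2 and 7 of 21, and 1 and 0 of 8, in the same order. Over all genes 13.4% were higher and 14.6% lower there.

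**Figure D4:**
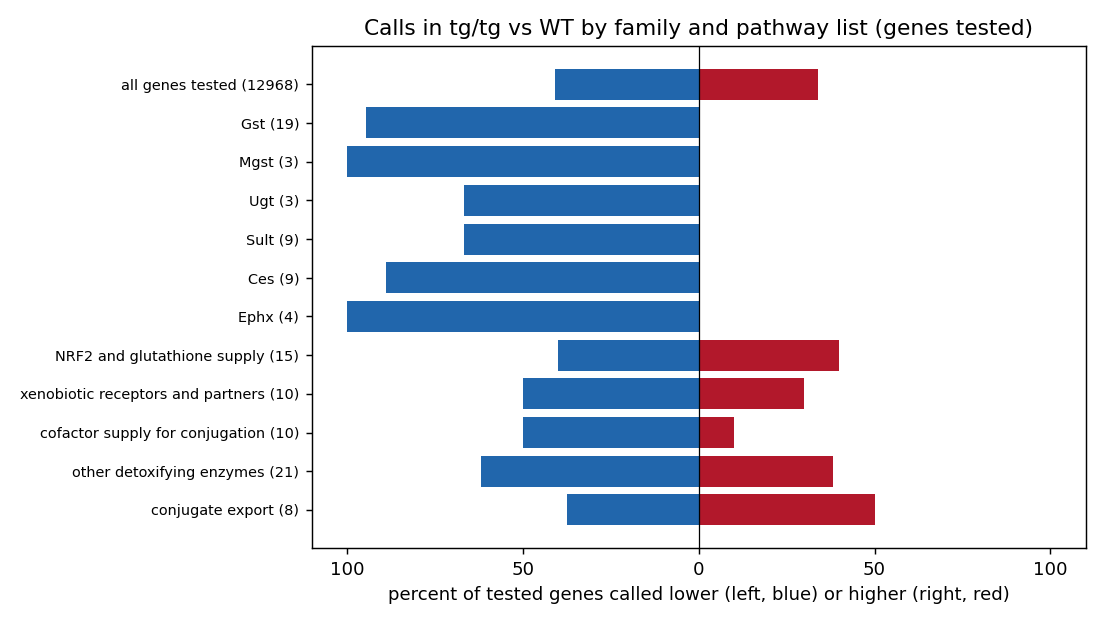
Percent of tested genes called lower (left, blue) or higher (right, red) in tg/tg against WT, for all genes tested, for 6 of the 7 families and for the 5 lists of related genes, with the number of genes tested in brackets. These families show bars to the left only, while each of the 5 lists has bars on both sides.

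Markers of several cell types moved with the detoxifying enzymes. Of 5 club cell markers tested of 6 listed, 4 fell and 1 rose in tg/tg against WT, and their summed linear level was 784 and 719 on the tg/tg arrays, 903 and 1070 on the tg/wt arrays, and 1140 and 1130 on the WT arrays. Cyp2f2 was 3.95-fold and Scgb1a1 1.51-fold lower in tg/tg than in WT. All 7 ciliated cell markers fell, with sums of 22.3 and 23.5 on the tg/tg arrays, 59.3 and 59.4 on the tg/wt arrays, and 75.4 and 74.0 on the WT arrays. The median log2 difference was -1.82 over the club cell list, which shares Aldh1a7 with the list of other detoxifying enzymes, and -1.54 over the ciliated cell list. All 7 endothelial markers fell too, with sums of 54.3 and 54.2 on the tg/tg arrays, 122 and 124 on the tg/wt arrays, and 131 and 133 on the WT arrays. Adipocyte markers, 7 of 7 lower, summed to 4.42 and 4.46 on the tg/tg arrays, 26.5 and 26.9 on the tg/wt arrays, and 39.9 and 38.6 on the WT arrays. Heart muscle markers, 7 of 7 lower, summed to 11.9 and 12.4 on the tg/tg arrays, 105 and 106 on the tg/wt arrays, and 217 and 214 on the WT arrays. Several members, among them Ces1d and Ces1f, are also known from adipose tissue or liver.

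Of 8 hepatocyte markers 3 passed the filter on low signal, all lower in tg/tg, and Apoa1, Apoa2, Ttr, Serpina1a and Fgb were not tested. Alb and Cyp2e1, 2 of the 3, were not well above background on either tg/tg array and passed the filter through the other groups, so the tg/tg sum rests partly on unmeasured signal. The sum of the 3 was 0.303 and 0.312 on the tg/tg arrays, 0.871 and 0.909 on the tg/wt arrays, and 1.14 and 1.12 on the WT arrays. Of 8 alveolar macrophage markers 7 fell and 1 rose, with sums of 89.3 and 88.3 on the tg/tg arrays, 98.1 and 102 on the tg/wt arrays, and 107 and 106 on the WT arrays. The median log2 difference of that list was -2.22, and its mean log2 level was -0.90 and -0.75 on the tg/tg arrays, 1.85 and 1.87 on the tg/wt arrays, and 1.74 and 1.70 on the WT arrays. In the opposite direction, all 8 markers of monocytes and interstitial macrophages rose, with sums of 196 and 201 on the tg/tg arrays, 22.0 and 21.5 on the tg/wt arrays, and 13.7 and 13.1 on the WT arrays, and all 6 T cell markers rose. The alveolar type 2 list was mixed, with 3 of 9 higher and 2 lower, and its median log2 difference was -0.01. Without Sftpc, which was saturated, its 8 other markers summed to 581 and 553 on the tg/tg arrays, 396 and 417 on the tg/wt arrays, and 415 and 400 on the WT arrays. That sum, which weighs the brightest probes most, was higher in tg/tg and overlapped between tg/wt and WT. Of 8 fibroblast markers 3 rose and 5 fell, led by the methyltransferase Inmt at 22.1-fold lower in tg/tg than in WT. Of 5 alveolar type 1 markers 4 fell and 1 rose in tg/tg, of 3 erythroid markers all 3 fell, and of 4 B cell markers 3 fell. All 5 neutrophil markers rose in tg/tg against WT, with a median log2 difference of 0.43. In tg/wt against WT the 3 erythroid and 5 neutrophil markers fell, the neutrophil list with a median of -1.96, and the 4 B cell markers rose. The part of any of these cell types in the lower levels of the detoxifying enzymes was not tested.

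The 20 members that could not be tested were Ces2c, Ces3b, Ces4a, Ces5a, Fmo9, Gstt4, Sult1b1, Sult2a2, Sult3a1, Ugt1a1, Ugt1a9, Ugt2a1, Ugt2a3, Ugt2b1, Ugt2b34, Ugt2b35, Ugt2b37, Ugt2b38, Ugt2b5 and Ugt3a1. Of these, 15 were not well above background on any array, and 11 of the 20 belong to the Ugt family, whose members are mostly known from liver and olfactory epithelium. Where 10 members had more than 1 tested probe, all probes of a gene fell together in tg/tg, and Ces2b showed the widest gap in size between its probes. In tg/wt against WT the probes agreed less well. Second probes of Ces2b (0.03), Gsta3 (-0.15) and Ugt1a6b (-0.12) did not pass when every probe was tested on its own. Both probes of Gstm1, Gstp1 and Mgst1 did pass as lower. The probes of Fmo2 differed in sign, at -0.23 and 0.14, and neither passed.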

How the data were processed

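Per the labels, column-purified total lung RNA was turned into Cy3-labelled cRNA for single-colour arrays. Per the file headers, the deposited intensity values come from Agilent Feature Extraction 9.5.3.1, which gives a background-subtracted, linear processed intensity not scaled between arrays; the submitters' processing notes name version 9.1. The deposited series table holds the background-subtracted intensity of all 45018 features (tolerance 1e-04), linear, uncentred and unscaled, with array medians of 74.4 to 115; it served as an alternative.

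Control spots and outlier spots (138 to 187 per array) were left out, spots of a probe were averaged, and the log2 processed intensity was centred on the 75th percentile of its array. Of 41174 probes 22951 were named through RefSeq accessions (GRCm38.p6) and 18223 had no symbol there. Probes well above background on at least 2 of 6 arrays entered, with the probe of highest mean standing for its gene. All 6 arrays were fitted in limma 3.58.1 (lmFit, eBayes; R 4.3.3), with Benjamini-Hochberg adjustment over 12968 genes, and the fit was tested on simulated data. Standard errors (SE) are those of log2 differences. Where no array of a group was well above background, the fold is a bound ("at least"). The p-value of such a gene belongs to the fitted log2 difference, which uses the unmeasured signal, unless a floor is named. The number of arrays, 2 per group, limits the precision. Per-array values are given for up to 4 members per family with the largest change, and genes outside the families come from fixed lists, up to 4 per list by size of change. The members and lists were chosen with earlier results of these data known. Alternatives covered background correction (normexp on the median signal, offset 50, with marked or extreme local backgrounds set to the array median), normalization, filters, a floor, probes, variance trend, source of values, slide, replicate number and leaving out each array. The fits that left out an array held only the 2 groups compared. An array taken from 1 of these left 1 array in that group. Promoters were searched with Python 3.11.15, and aligned with Biopython 1.88. Values of 1 member are not reported here on its own; it stays in the counts and medians over all members.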

Additional observations from a re-analysis of the deposited data

How the results depend on the processing

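The counts of members lower in tg/tg against WT (46) and in tg/tg against tg/wt (45) stayed within 1.5 times under every alternative run, at 44 to 56 and 41 to 55, where the highest values count every probe on its own. With only the 2 groups compared fitted, the counts were 46 and 44. In tg/wt against WT the 25 lower became 19 with quantile normalization, 22 with no filter on dim probes and 8 to 27 with 1 array left out. The counts of members higher, 0 in each comparison, moved as follows. In tg/wt against WT 1 was higher with normexp, quantile normalization and the variance trend (Ephx1), with no filter (Ugt2b34) and with the series values (Sult1c1), and 2 when only the 2 groups were fitted (Sult1c1, Ugt3a2). In tg/tg against WT 1 was higher with the variance trend and with only the 2 groups fitted (Gstp3). The fit within slide 1 is that same fit of 2 groups. In tg/tg against tg/wt 1 was higher with normexp (Sult2b1). Fits of the 2 groups with a further array left out held 1 array in a group, so counts from them are not given. With replicate number as a block 46, 19 and 45 members were lower in tg/tg against WT, tg/wt against WT and tg/tg against tg/wt, and 2 were higher in tg/wt against WT (Fmo4, Sult4a1); the labels do not say that the numbers pair the arrays, and deviations of same-numbered arrays correlated at -0.048, 0.129 and -0.0458. For single members 582 values kept their direction and call, 5 lost the call and 2 reversed: Ugt8a in tg/tg against WT was 0.07 with a floor and 0.07 with the series values, where both groups lie near background. Ugt8a also lost its call with normexp (-0.38, adjusted p = 0.059). The other lost calls, all of Ephx3, came from fits of tg/tg and WT alone that held 1 array in a group. Except for the fits with fewer arrays or genes, the cause of these changes was not tested. No scaling moved the median of all genes by over 0.1. Low signal limits what can be said of the 20 dim members.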
